A study of Mus musculus with 20 samples.

Results

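The cytosolic ribosomal protein genes of the mouse encode the proteins of the small (40S) and large (60S) subunits of the ribosome that works in the cytoplasm. They were taken by gene symbol: 103 symbols in the count table began as Rpl or Rps followed by a number or were Rplp0 to Rplp2 or Rpsa, and leaving out 10 S6 kinase genes, Rps19bp1 and 6 numbered pseudogenes left 86 of 24393 genes. Of these, 34 belong to the 40S subunit and 52 to the 60S subunit with its stalk, and 9 are second copies or paralogs of another member. RNA had been sequenced from 20 libraries of cells taken from 3 leg muscles (quadriceps, tibialis anterior and gastrocnemius) of mice. The labels give 3 cell populations, FAP, SMP and Misc, under 2 conditions, WT and DKO, with 4 libraries each of FAP WT, FAP DKO, Misc WT and Misc DKO and 2 libraries each of SMP WT and SMP DKO. The series text calls the replicates biological, but strain, age, sex, the deleted genes, any pooling of animals and how the cells were separated are not stated in the sources used here, so p-values measure the spread between these libraries. The series text names a population FB in place of Misc, and no label ties the 2 names.

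Each ribosome carries 1 copy of most of these proteins, so cells make them in near-equal amounts. Their messenger RNAs are short, abundant and known as TOP messenger RNAs: they begin with a C followed by a run of pyrimidines, through which the kinase complex mTORC1 and the binding protein Larp1 set how much of them is translated. In muscle, satellite cells at rest make few ribosomes, and ribosome production rises when they leave rest.

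The pyrimidine run near the start is shown for 8 of 9 members whose DKO difference was smaller in FAP than in SMP by a test given below. Rplp1, also among the 9, is not shown. These 9 make up 11.0% of the 82 members tested, about the share of all genes that passed that test in either direction (10.3%). Each line gives 30 bases of RefSeq sequence (GRCm38.p6, the assembly also named mm10), 5′ to 3′ on the strand of the gene, with the longest run of C and T in the stretch from 20 bases before to 50 bases after the annotated start in capitals.
Rpl37: ggcgggggtgCTTTCTCTTCCggtctcttt
Rpl35: gtcggccccgCCCTTTCCTCTTTCTCTCga
Rps15: gcagcccgtaCTTCCTTTTCCgagtaaccg
Rpl28: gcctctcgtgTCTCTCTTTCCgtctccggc
Rpl18: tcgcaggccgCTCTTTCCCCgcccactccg
Rpl41: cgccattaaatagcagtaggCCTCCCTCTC
Rpsa: cggccgcccgTCCTTTCgcgctacccgggg
Rpl27: gaacgctctgTTCCTgtctgctgctcgtgc
These windows lie at chr15:5116631-5116660 (Rpl37, plus strand), chr2:39005119-39005148 (Rpl35, minus), chr10:80292446-80292475 (Rps15, plus), chr7:4792952-4792981 (Rpl28, plus), chr7:45718062-45718091 (Rpl18, plus), chr10:128549119-128549148 (Rpl41, minus), chr9:120127776-120127805 (Rpsa, plus) and chr11:101442228-101442257 (Rpl27, plus). Starts are those of the promoter table, and that of Rpl18 lies inside the gene, whose RefSeq span begins further upstream at chr7:45715467. The runs were 18 bases long in Rpl35, 11 in Rpl37, Rps15 and Rpl28, 10 in Rpl18, 7 in Rpsa and 5 in Rpl27. In Rpl41 the run of 10 bases reached the end of the stretch searched, so it may be longer. Relative to the annotated start, the runs began at 1 in Rpl18, 20 in Rpsa, 25 in Rps15, 28 in Rpl37 and 40 in Rpl41. Upstream of it, they began at -3 in Rpl28 and -7 in Rpl35 and Rpl27. The runs of Rpl28 and Rpl35 cover the annotated start and the others do not. Those of Rpsa and Rpl27 are shorter than the 8 bases counted below. The table of promoters held 77 starts for 65 of the 86 members. A run of 8 or more C or T in that stretch was found in 66.2% of these 77 and in 25.4% of all 32851 promoters, and a C at the annotated start with 4 or more C or T after it in 18.2% against 2.51%. On either strand of the 300-base promoters, CCGGAAG was present in 35.1% of the member promoters and 8.86% of all, AAGATGG in 15.6% and 6.34%, TATAAA in 9.09% and 13.6%, and CACGTG in 10.4% and 7.15%. None of these 4 motifs contains another.

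The libraries held 5826000 to 17730111 counts. Des, which encodes the intermediate filament protein desmin, was lower in DKO in all 3 populations (log2 difference -1.81 ± 0.18 (SE) in FAP, -1.25 ± 0.25 in Misc and -1.45 ± 0.19 in SMP, edgeR's quasi-likelihood test, adjusted p = 2.7e-07, 0.00094 and 1.6e-05). Syne1, for the nuclear envelope protein nesprin-1, was lower in Misc (-0.69 ± 0.12, adjusted p = 0.00028) and SMP (-1.03 ± 0.18, adjusted p = 0.00032), and was -0.31 ± 0.12 in FAP (adjusted p = 0.11). Whether these are the deleted genes is not stated in the labels. The summed level of 5 FAP markers (Pdgfra, Ly6a, Cd34, Dcn, Gsn) was 69600 to 90900 CPM (counts scaled to library size) in the FAP libraries and 28900 to 35700 in Misc. Most of the FAP sum was Gsn (49200 to 69200 CPM). Pdgfra, Ly6a, Cd34 and Gsn were each higher in every FAP library than in any Misc library. Dcn went the other way in WT, at 16700 to 17900 CPM in FAP and 19900 to 20700 CPM in Misc, and overlapped in DKO. The sum of 7 satellite cell markers, Pax7 among them, was highest in the SMP libraries (2140 to 2650 CPM), and that of 7 tendon markers in Misc (50800 to 71800 CPM). SMP DKO library 2 stood apart, with 10200 CPM of FAP markers and 312 CPM of immune markers, against 1980 to 2690 CPM and 18.3 to 27.7 CPM in the other 3 SMP libraries.

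Ribosomal protein messenger RNA was most abundant in SMP DKO and least abundant in Misc WT. Of the 78 members with a mean of at least 5 CPM, 76 had their highest group mean in SMP DKO and 74 their lowest in Misc WT. Over all 10236 tested genes at that level, SMP DKO was the highest group for 22.5% and Misc WT the lowest for 17.1%. Between the highest and the lowest group the members spanned 1.71-fold (Rps27l) to 5.08-fold (Rps4l), with a median of 2.5-fold. The exceptions were Rplp1, which was highest in FAP DKO, Rps4l, which was highest in FAP WT, and Rpl41 and Rps27l, which like those 2 were lowest in SMP WT. These 4 were singled out after their values were seen.

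Summed over the 86 members, the share of a library's counts was 1.46, 1.64, 1.37 and 1.48% in the 4 Misc WT libraries and 2.13, 1.97, 2.07 and 2.0% in the 4 Misc DKO libraries, so the groups did not overlap. In SMP it was 3.21 and 3.79% in WT and 5.09 and 4.58% in DKO, again without overlap. In FAP it was 1.94, 2.44, 2.37 and 2.08% in WT and 2.71, 2.46, 2.13 and 2.35% in DKO, and the groups overlapped. The DKO mean was 1.37 times the WT mean in Misc, 1.38 times in SMP and 1.09 times in FAP. In bulk libraries a share sets these genes against all other RNA, and fewer cells of a type and less RNA per cell cannot be told apart. The 50 most counted other genes took 18.2 to 36.6% of the counts, and without them the same ratios were 1.35, 1.33 and 1.1.

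**Figure D1:**
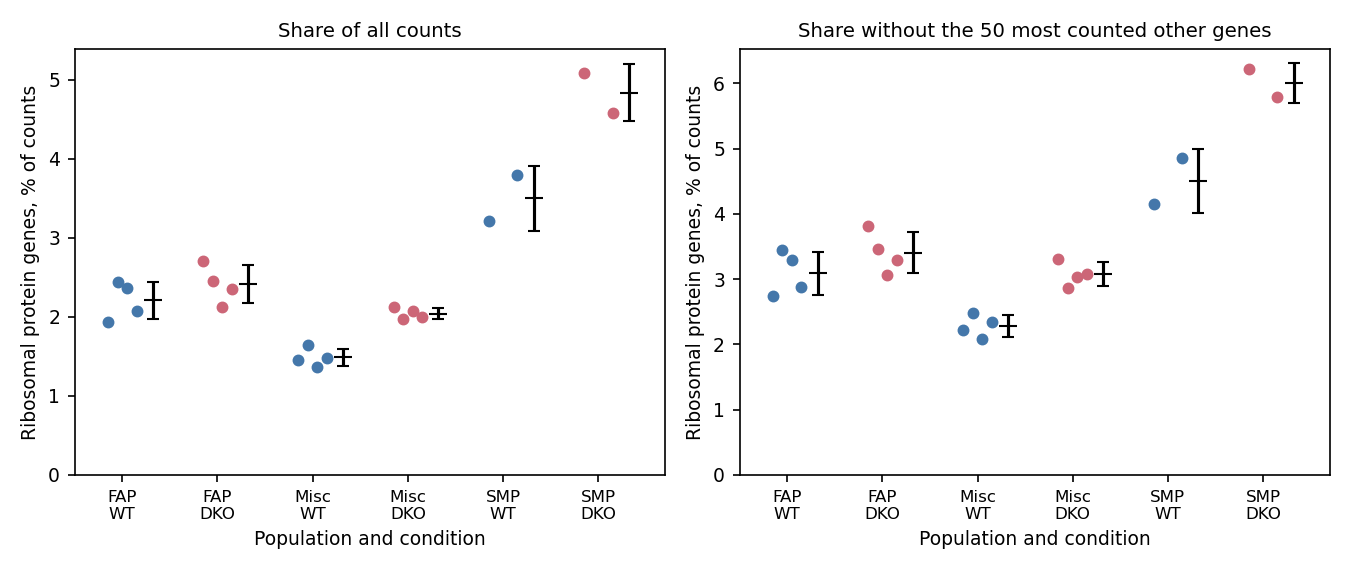
Share of each library's counts that fell on the 86 ribosomal protein genes (left) and the same without the 50 most counted other genes (right), in percent. Points are libraries, bars are the group mean ± SD; Misc WT lies lowest at 1.37 to 1.64% and SMP DKO highest at 4.58 to 5.09%.

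Compared per length (mean CPM over all libraries per 1000 bases of annotated transcript), Rpl10 at 892.1, Rps4x at 868.7 and Rpl23a at 837.7 were the most abundant members. Variation within groups of 4 libraries was taken over the 78 members with a mean of at least 5 CPM. Their median coefficient of variation ran from 9.12% (Misc DKO) to 14.4% (FAP WT). Rpl39, for a small protein lining the exit tunnel, was the most variable of these 78 in 3 of those 4 groups (30.3% in FAP DKO, 39.1% in FAP WT and 40.9% in Misc WT). In FAP WT its level was 86.3, 165.6, 98.2 and 72.6 CPM, so library 2 was far above the others. Some members gave next to no counts: Rpl26, Rpl10l and Rps27rt had 0 in all 20 libraries, Rpl30 had 12 counts in all, Rpl34 had 98 and Rps27 had 174. Rpl26, Rpl30, Rpl34 and Rps27 have near-identical copies elsewhere in the genome, how reads with several matches were counted is not stated in the sources used here, and the values of these 4 are uncertain. Other members may be affected as well. The 6 pseudogenes left out took from 0 counts (Rpl34-ps1) to 10821 (Rpl31-ps12, beside 58965 for Rpl31). How far this shifts the levels of members, those ranked per length included, was not tested. With Rpl26, Rpl10l, Rps27rt and Rpl30 below the filter on low counts, 82 of the 86 members were tested among 14179 genes.

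In Misc, most ribosomal protein genes rose in DKO. Of the 82 members tested, 56 were called higher (adjusted p below 0.05 over all genes, edgeR's quasi-likelihood test) and 0 lower, where 9.15% of all 14179 genes were called higher and 9.55% lower (18.7% either way). The median log2 difference was 0.43, or 1.35-fold, against 0.01 over all genes tested. The members moved by similar amounts: their quartiles lay at 0.37 and 0.48, while those of all genes lay at -0.24 and 0.23. In 54 members every DKO library was above every WT library, where 9.92% of all genes behaved so. Both subunits took part, with 20 of 31 members of the 40S subunit, 36 of 44 of the 60S subunit and 0 of 7 tested paralogs called higher.

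Rpl29, a 60S protein dispensable for making ribosomes, was at 62.5, 61.0, 72.5 and 61.2 CPM in the 4 Misc WT libraries and at 75.4, 108.6, 113.9 and 151.6 CPM in Misc DKO. The groups did not overlap, although the DKO libraries spread widely, and the log2 difference was 0.81 ± 0.17 (SE, adjusted p = 0.0027). Rpl37, a zinc-binding 60S protein, was at 74.5, 77.2, 61.3 and 64.9 CPM in WT and 109.6, 113.7, 94.3 and 105.0 CPM in DKO. It rose by 0.60 ± 0.12 on the log2 scale (adjusted p = 0.00079). Rps3, which sits at the entry of the messenger RNA channel, was at 208.4, 246.1, 186.2 and 197.8 CPM in WT and 367.6, 278.7, 288.3 and 319.9 CPM in DKO, a log2 rise of 0.58 ± 0.12 (adjusted p = 0.0018). All 3 changes separated the 2 groups completely. Beside these values, the summed satellite cell markers were 358 to 471 CPM in Misc WT and 1070 to 1300 CPM in Misc DKO. Most of that sum was Chodl, at 309 to 407 CPM in Misc WT and 1010 to 1230 CPM in Misc DKO. Pax7, Myf5, Myod1 and Cdh15 were each at most 7.3 CPM in either group. The summed muscle fibre markers were 24.1 to 29.9 CPM in Misc WT and 36.9 to 67.5 CPM in Misc DKO. The part of these markers in the ribosomal protein difference was not tested.

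In SMP, 44 of 82 members were called higher in DKO and 0 lower, where 11.8% of all genes were called higher and 11.2% lower (23.0% either way). The median log2 difference was 0.51 (1.42-fold) against 0.01 over all genes, and the members differed more among themselves than in Misc, with quartiles at 0.34 and 0.66. In 75 members both DKO libraries were above both WT libraries, which held for 27.4% of all genes. By subunit, 15 of 31 members of the 40S, 24 of 44 of the 60S and 5 of 7 paralogs were called higher, Rpl39l among them on 4 counts. Rpl3l, also among them, passed the filter on low counts through DKO libraries only. With 2 libraries a group, single libraries mattered: 13 members were called without SMP WT library 1 and 24 without SMP DKO library 1. Leaving out SMP DKO library 2, the one with FAP and immune markers, left 36 calls. Beside these values, the muscle fibre markers summed to 28.5 and 42.3 CPM in SMP WT and 147 and 470 CPM in SMP DKO. Of the satellite cell markers, Pax7 was at 262 to 271 CPM in WT and 100 to 125 CPM in DKO. Myod1, which marks activated cells, was at 132 to 140 and 338 to 353 CPM, and Chodl at 945 to 998 and 309 to 453 CPM. The others changed less, with Myf5 at 138 to 163 and 122 to 152 CPM and Cdh15 at 166 to 193 and 163 to 192 CPM. Itga7 was at 333 to 355 and 369 to 418 CPM, and Vcam1 at 549 to 621 and 623 to 721 CPM. The part of these markers in the ribosomal protein difference was not tested.

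Rplp1, an acidic protein of the ribosomal stalk that recruits elongation factors, was at 177.7 and 198.9 CPM in SMP WT and at 434.5 and 387.0 CPM in SMP DKO. Its log2 difference of 1.13 ± 0.19 (SE, adjusted p = 0.00019, edgeR's quasi-likelihood test) was the largest of the members with at least 5 CPM. Its stalk partners moved less, Rplp2 by 0.72 ± 0.17 (adjusted p = 0.0039) and Rplp0 by 0.53 ± 0.16 (adjusted p = 0.02). Rpl37 was at 93.6 and 108.0 CPM in WT and 228.6 and 167.9 CPM in DKO, a rise of 0.98 ± 0.17 (adjusted p = 0.00027). Rpl29 was at 137.2 and 125.8 CPM in WT and 253.7 and 261.2 CPM in DKO, a rise of 0.97 ± 0.24 (adjusted p = 0.0081), which was no longer called without SMP WT library 2 (0.89, adjusted p = 0.067). In all 3 genes both DKO libraries lay above both WT libraries. At the other end, Rpl4, a 60S protein that reaches into the exit tunnel, was at 1662 and 1974 CPM in WT and 1982 and 1998 CPM in DKO (0.13 ± 0.13, adjusted p = 0.51), and Rpl5, which carries the 5S RNA into the ribosome, differed by 0.11 ± 0.15 (adjusted p = 0.66).

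In FAP, 0 of 82 members were called in DKO by edgeR's quasi-likelihood test, where 5.58% of all genes were called higher and 5.14% lower (10.7% either way). An unadjusted p below 0.05 was found for 4 of the 82 members, and DESeq2 called 2. The members nevertheless leaned one way, with 79 of 82 above 0, a median log2 difference of 0.15 against -0.01 over all genes, and a median standard error of 0.12. In 2 members all DKO libraries were above all WT libraries, where 8.87% of all genes behaved so. Rpl29 came closest, at 84.5, 114.9, 116.8 and 84.2 CPM in WT and 102.9, 165.8, 148.8 and 159.8 CPM in DKO (0.53 ± 0.17, adjusted p = 0.056), and the groups overlapped. Rplp0, a gene often used to scale qPCR, was at 714.5, 820.7, 815.8 and 808.4 CPM in WT and 892.3, 942.1, 828.9 and 753.4 CPM in DKO (0.11 ± 0.11, adjusted p = 0.59).

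**Figure D2:**
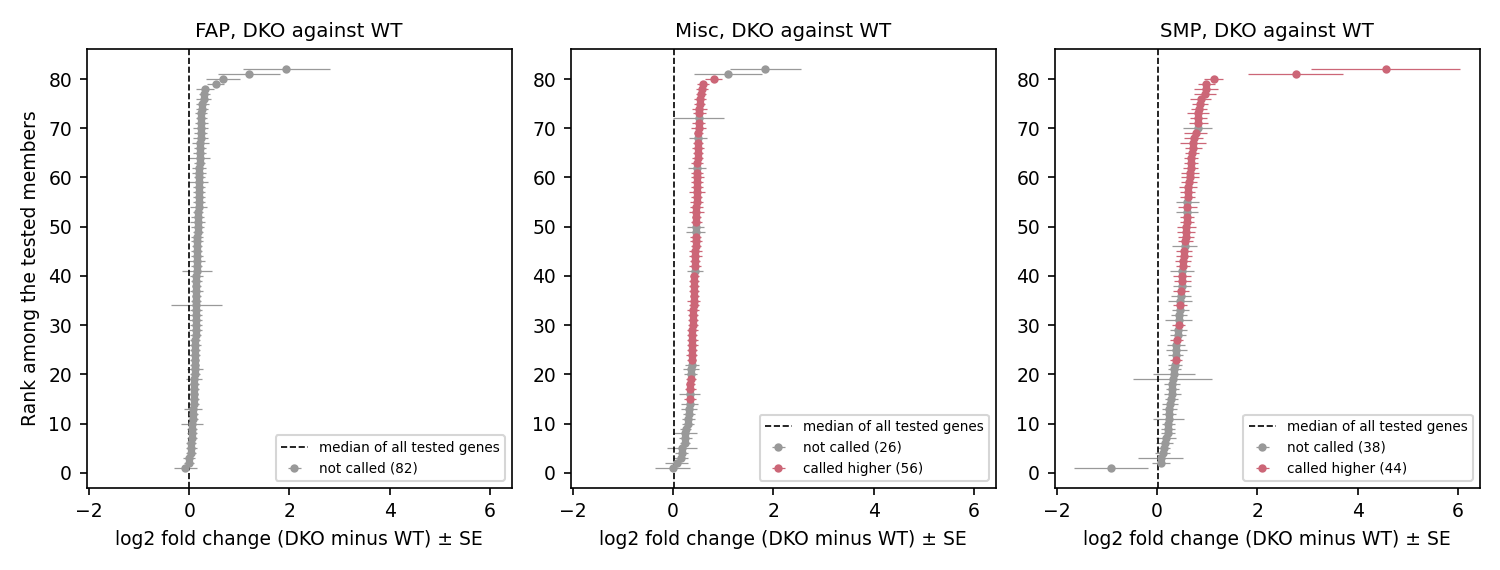
Log2 fold change of each of the 82 tested members (DKO minus WT, ± SE), ordered by size in each population, with called members in red and the median of all tested genes as a dashed line. No member is called in FAP, 56 are in Misc and 44 in SMP; the points far to the right are members with few counts (Rpl3l, Rpl34 and Rpl39l).

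The differences themselves were compared between populations. The DKO difference was smaller in FAP than in SMP for 9 members (0 larger), where 5.42% of all genes were called in that direction, 4.92% in the other and 10.3% either way: Rplp1 (-0.89 ± 0.23, adjusted p = 0.014), Rpl37 (-0.78 ± 0.20, adjusted p = 0.016), Rpl41 (-0.78 ± 0.19, adjusted p = 0.011), Rps15, Rpl35, Rpl27, Rpsa, Rpl18 and Rpl28, all in FAP minus SMP on the log2 scale and by edgeR's quasi-likelihood test. At 11.0% of the 82 members, this is about the share of all genes called either way. Without SMP WT library 1 the count was 0, and it was 5 without FAP DKO library 3 or 4, FAP WT library 2 or 3, or SMP DKO library 1. Between FAP and Misc the count was 0 (2.79% of all genes called, 1.37% higher and 1.42% lower, 21 members at an unadjusted p below 0.05, 4 by DESeq2), with a median of -0.26. With the replicate number as a block within each condition, which pairs FAP and Misc libraries, 8 members were called. Whether the rise in Misc exceeded that in FAP thus depended on the pairing and on the test used. Between Misc and SMP the count was 0 (8.94% of all genes called, 4.61% higher and 4.34% lower, 5 members at an unadjusted p below 0.05, 2 by DESeq2), 3 without Misc DKO library 1 and 2 without Misc WT library 3.

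Across the 78 members with at least 5 CPM, the size of the DKO difference was only loosely alike between populations, which share no libraries: Pearson's r over genes was 0.48 for FAP and Misc, 0.43 for FAP and SMP and 0.36 for Misc and SMP. The differences between populations were more alike in the 2 conditions, with r of 0.75 for FAP against Misc, 0.89 for FAP against SMP and 0.88 for Misc against SMP. Genes are not independent replicates, and these values describe the lists only.

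The populations were also compared within each condition, first FAP with Misc. In WT, 67 of 82 members were called higher in FAP and 0 lower, where 19.3% of all genes were called higher and 17.6% lower (36.9% either way), with a median log2 difference of 0.52 against 0.01 over all genes. Rps4x, the X-linked form of the 40S protein S4, was at 726.1, 894.6, 924.5 and 848.2 CPM in FAP WT and at 446.0, 551.4, 471.0 and 517.0 CPM in Misc WT. The groups did not overlap, and differed by 0.77 ± 0.10 on the log2 scale (adjusted p = 1.1e-06). Rpl37 differed by 0.77 ± 0.12 (adjusted p = 1e-05). In DKO, 21 members were called higher in FAP and 0 lower, where 16.0% of all genes were called higher and 13.7% lower (29.7% either way), with a median of 0.25. Rps29, a small zinc-binding 40S protein, differed most, by 0.52 ± 0.13 (adjusted p = 0.0042). Rps20 differed by 0.44 ± 0.16 (adjusted p = 0.047). This DKO count moved with the libraries used, to 5 without FAP DKO library 1, 7 without FAP DKO library 2, 6 without Misc DKO library 2 and 8 without Misc DKO library 3, and it was 47 with the block. The Rps20 call was lost in 7 of the 8 leave-one-out fits.

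Most members were lower in Misc than in SMP in both conditions, and lower in FAP than in SMP in DKO. Against SMP, 68 of 82 members were lower and 2 higher in Misc WT, where 30.0% of all genes were called lower and 30.6% higher (60.6% either way), with a median log2 difference of -0.78. In DKO, 74 members were lower and 2 higher (29.7% of all genes lower, 29.8% higher, 59.5% either way), with a median of -0.89. The 2 higher members were Rps4l and Rpl39l in both conditions, and in FAP DKO as well. FAP stood closer to SMP in WT, where 32 members were lower and 5 higher (31.3% of all genes lower, 31.1% higher, 62.3% either way), with a median of -0.32, so that the share of members called lower was 39.0%. In DKO, 67 members were lower and 2 higher (29.6% of all genes lower, 29.2% higher, 58.8% either way), with a median of -0.63. The WT count of 37 fell to 21 without SMP WT library 2.

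Rpl4 was at 823.6, 970.0, 1001 and 909.0 CPM in FAP WT, at 624.2, 712.0, 676.8 and 703.5 CPM in Misc WT, and at 1662 and 1974 CPM in SMP WT. The 3 groups did not overlap, and the log2 difference from SMP was -0.97 ± 0.11 in FAP (adjusted p = 6.6e-08) and -1.42 ± 0.11 in Misc (adjusted p = 1.5e-10). Rpl5 was lower than in SMP by 0.95 ± 0.13 in FAP (adjusted p = 7.7e-07) and by 1.52 ± 0.13 in Misc (adjusted p = 5.3e-10), and Rpl6 by 0.89 ± 0.11 in FAP (adjusted p = 2.1e-07). Among members with at least 5 CPM, the lowest in DKO against SMP were Rpl10a (-1.16 ± 0.11 in FAP and -1.30 ± 0.11 in Misc), Rps19 (-1.03 ± 0.14 and -1.25 ± 0.14) and Rpl3 (-1.02 ± 0.12 and -1.28 ± 0.12). All 6 of these DKO differences were called, with adjusted p between 3.3e-10 and 1e-06. The 5 members higher in FAP WT than in SMP WT were Rplp1, Rps29, Rps14 (0.51 ± 0.19, adjusted p = 0.026) and the paralogs Rps4l and Rpl39l. Rplp1 was at 315.4, 437.3, 352.8 and 304.9 CPM in FAP WT against 177.7 and 198.9 CPM in SMP WT (0.90 ± 0.17, adjusted p = 4.9e-05). Rps29 was at 187.2, 254.4, 201.3 and 166.4 CPM against 115.8 and 153.1 CPM (0.59 ± 0.17, adjusted p = 0.0036), and was no longer called without SMP WT library 1 (0.42, adjusted p = 0.1).

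Transcript length moved with several of these differences. The tested members had a median length of 829.75 bases, against 2964 bases over the 13666 tested genes with a length. Across other genes, shorter transcripts were higher in SMP DKO than in SMP WT: the median log2 difference was 0.45 among 243 other genes of 500 to under 750 bases, 0.22 among 1255 of 1000 to under 1500 bases and -0.16 among 2527 of 5000 bases and over. Members of 500 to under 750 bases had a median of 0.55 and those of 1000 to under 1500 bases 0.42, so in SMP other genes of like length were higher as well. The members still lay above them in both bins. They also did so under 500 bases (0.72 against 0.35) and at 1500 to under 2500 bases (0.46 against 0.09). The latter bin held 8 members, among them Rps3 (1908 bases), Rpl18 (1834) and Rpsa (1768.5). Lengths were taken from annotated transcripts. Whether the transcripts in these cells had those lengths was not tested, so the bin of a member is uncertain. In Misc the trend was weaker, with medians of 0.12 in other genes and 0.46 in members of 500 to under 750 bases. In FAP the same medians were 0.02 and 0.15.

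When a trend on length was taken out of each library, 16 members were called higher in SMP DKO in place of 44, and their median fell to 0.21. In Misc, 52 in place of 56 were called, with a median of 0.31, and in FAP 0, with a median of 0.1. Over other genes, Spearman's rho between length and the DKO difference went from -0.21 to 0.0 in SMP and from -0.15 to 0.01 in Misc. Over the members it went from -0.27 to 0.24 and from -0.05 to 0.37, so the members still had a trend with length after this step. Among the leading genes, Rplp1 in SMP was 0.65 ± 0.13 (adjusted p = 0.001) and Rpl37 0.68 ± 0.15 (adjusted p = 0.0022), and Rpl29 was no longer called (0.61 ± 0.30, adjusted p = 0.17). In Misc, Rpl29, Rpl37 and Rps3 were all still called, at 0.67, 0.49 and 0.54. The count for FAP against SMP DKO differences went from 9 to 3. The median difference between the Misc and SMP responses turned from -0.11 to 0.1.

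For FAP against SMP in WT, length ran the other way. Other genes of 500 to under 750 bases were higher in FAP by a median of 0.64, whereas members of that length were lower by a median of 0.31 on the log2 scale. Taking out the length trend raised the count of members called from 37 to 73, of which 70 were lower in FAP and 3 higher, and moved the median from -0.32 to -0.73. Rps29, higher in FAP without that step, was then at 0.02 ± 0.10 (adjusted p = 0.89). Rplp1 went from 0.90 to 0.36 ± 0.11 (adjusted p = 0.0067), and to 0.25 ± 0.11 with the trend drawn without the members (adjusted p = 0.061), which ended the call. For FAP against Misc in WT the count went from 67 to 66, and other genes showed little trend (0.11 at 500 to under 750 bases). Within libraries, Spearman's rho between length and a gene's deviation from its mean over libraries was 0.24 and 0.19 in SMP WT, 0.08 and 0.03 in SMP DKO and between -0.22 and 0.14 in the other 16 libraries.

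**Figure D3:**
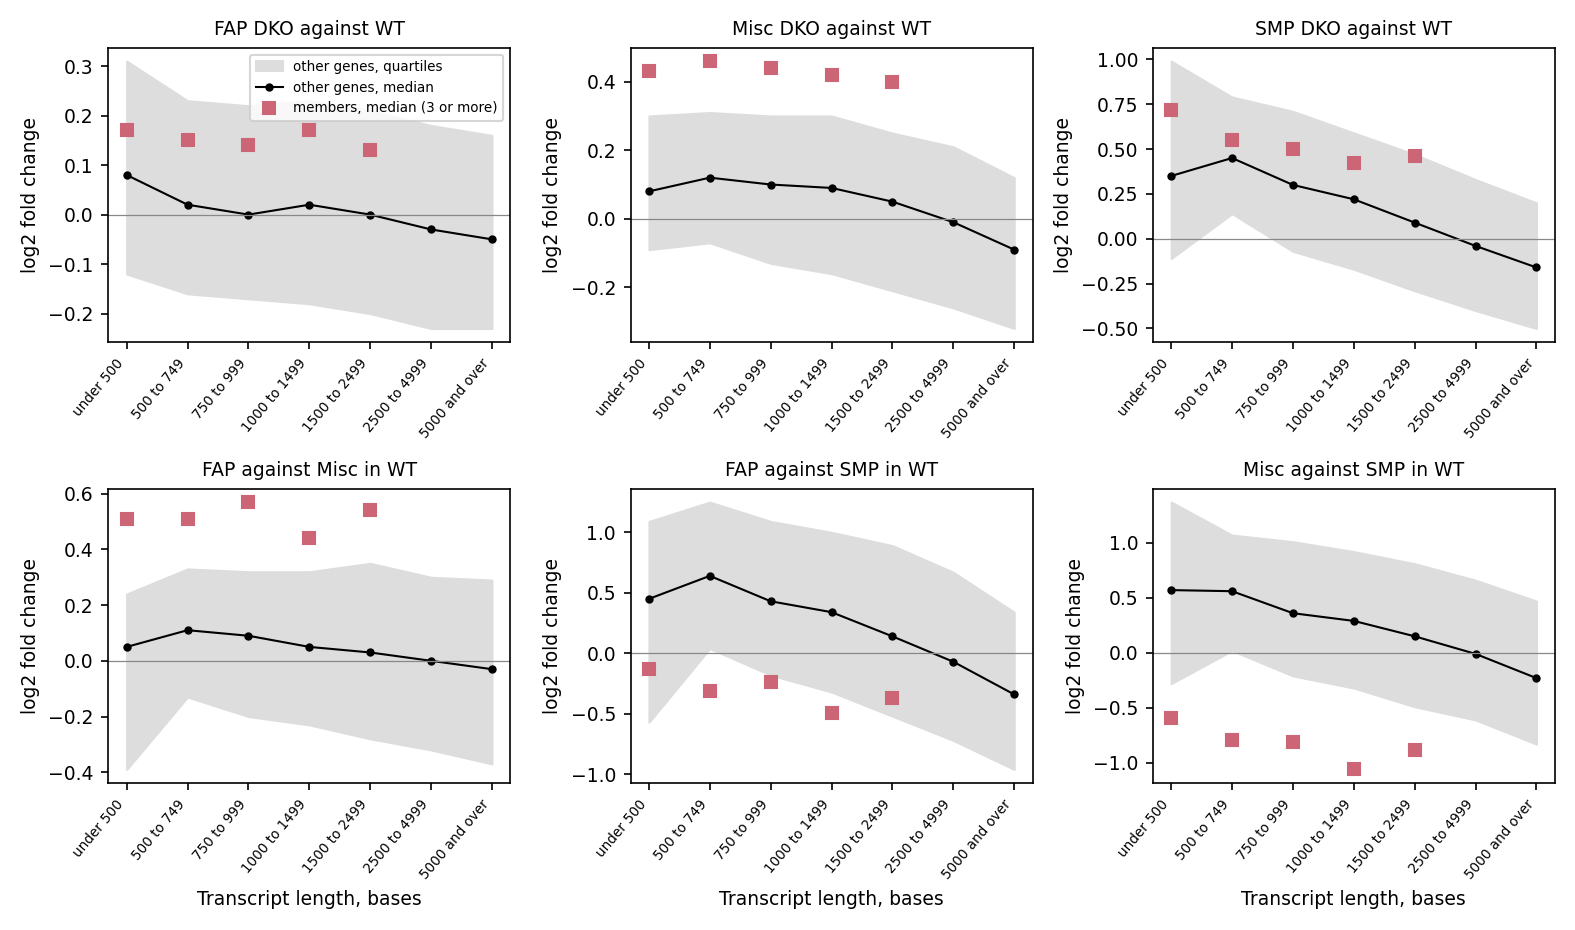
Median log2 fold change of other genes by transcript length (black line, quartiles shaded) and of the members in the same bins (red squares, bins with 3 or more members) for the 3 DKO comparisons and the 3 population comparisons in WT. In SMP DKO the line is higher for short transcripts than for long ones, and the members lie above it in every bin shown for them. In Misc DKO they also lie above it, and against SMP they lie on the opposite side of 0 from other short genes.

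The size of the change was set beside the promoter features shown above. In Misc DKO the 48 tested members with a run of 8 or more C or T had a median log2 difference of 0.44 and the 14 without had 0.39, and in SMP these were 0.5 and 0.51. Among 3045 other tested genes with such a run, the medians were -0.02 in Misc and -0.03 in SMP. The 13 members with a C and then 4 or more C or T at the annotated start had medians of 0.43 in Misc and 0.55 in SMP. The 49 without had 0.42 and 0.5. Among 324 other tested genes with that C and then 4 or more C or T, the medians were 0.02 in Misc and -0.02 in SMP.

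Among the paralogs, Rps4l and Rpl39l were higher in FAP and Misc than in SMP. Rps4l, a second gene for the S4 protein, was at 14.3, 12.6, 16.8 and 12.5 CPM in FAP WT, at 9.31, 5.36, 9.38 and 9.2 CPM in Misc WT, and at 2.19 and 3.33 CPM in SMP WT. It was higher than in SMP in FAP (2.35 ± 0.33 on the log2 scale, adjusted p = 2.2e-06) and Misc (1.59 ± 0.34, adjusted p = 0.0003), while its partner Rps4x was lower in both (-0.59 ± 0.12 and -1.37 ± 0.12, adjusted p = 0.00018 and 1e-09). Of the counts on the pair, Rps4l took 1.64% ± 0.26 (SD, n = 4) in FAP WT, 1.68% ± 0.49 (n = 4) in Misc WT and 0.213% ± 0.035 (n = 2) in SMP WT. In DKO it was again higher than in SMP, by 2.20 ± 0.36 in FAP (adjusted p = 1.9e-05) and 1.76 ± 0.37 in Misc (adjusted p = 0.00029). No DKO difference in Rps4l was called, the values being -0.08 ± 0.23 in FAP, 0.24 ± 0.24 in Misc and 0.07 ± 0.45 in SMP.

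Rpl39l, a retrogene copy of Rpl39 known from testis, had 10, 21, 18 and 11 counts in the FAP WT libraries, 20, 30, 16 and 19 in Misc WT, 0 in both SMP WT libraries and 3 and 1 in SMP DKO. Against the limit that a count of 0 allows (3 counts over the 2 SMP WT libraries, 0.148 CPM), the summed level was at least 8.74-fold higher in FAP WT and at least 11.0-fold higher in Misc WT. Such limits cover counting error only. In DKO the summed level was 2.09 CPM in FAP, 1.69 CPM in Misc and 0.335 CPM in SMP. Rpl39l took 1.87% of the counts of the pair in FAP DKO and 0.167% in SMP DKO. Reads of Rps4l and Rpl39l could in part belong to their near-identical partners.

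Rpl3l replaces Rpl3 in adult muscle fibres. It had 1, 1, 1 and 3 counts in FAP WT, 10, 2, 3 and 6 in FAP DKO, 0, 1, 10 and 3 in Misc WT, 13, 13, 5 and 5 in Misc DKO, 6 and 1 in SMP WT and 11 and 18 in SMP DKO. It was called higher in SMP DKO (2.76 ± 0.95, adjusted p = 0.038), but not without SMP DKO library 2 (adjusted p = 0.19), SMP WT library 1 (adjusted p = 0.057) or SMP WT library 2 (adjusted p = 0.22). In FAP and Misc the values were 1.94 ± 0.87 (adjusted p = 0.16) and 1.84 ± 0.70 (adjusted p = 0.071). Rpl3l passed the filter on low counts through DKO libraries only, so these DKO comparisons, the call in SMP included, are not independent of that filter. The 5 muscle fibre markers (Acta1, Myh4, Myh1, Ckm, Tnnt3) summed to 28.5 and 42.3 CPM in the SMP WT libraries and 147 and 470 CPM in SMP DKO; their part in the Rpl3l difference was not tested.

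Rpl22l1, the paralog of Rpl22, took 26.6 to 31.4% of the counts of its pair in all 6 groups and was called in no DKO comparison. Rpl36al took 33.0 to 38.7% of its pair in FAP and Misc and 27.5 to 28.7% in SMP. Rpl36al (0.52 ± 0.16, adjusted p = 0.026), Rpl7l1 (0.46 ± 0.14, adjusted p = 0.017) and Rps27l (0.77 ± 0.23, adjusted p = 0.019) were called higher in SMP DKO, each losing the call in at least 2 of the 4 leave-one-out fits. With the length trend taken out, Rpl36al was at 0.18 ± 0.14 (adjusted p = 0.35) and Rps27l at 0.30 ± 0.18 (adjusted p = 0.24), neither called. Rps27l gave 90.4 to 96.3% of the counts of its pair, since Rps27 itself had few.

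**Figure D4:**
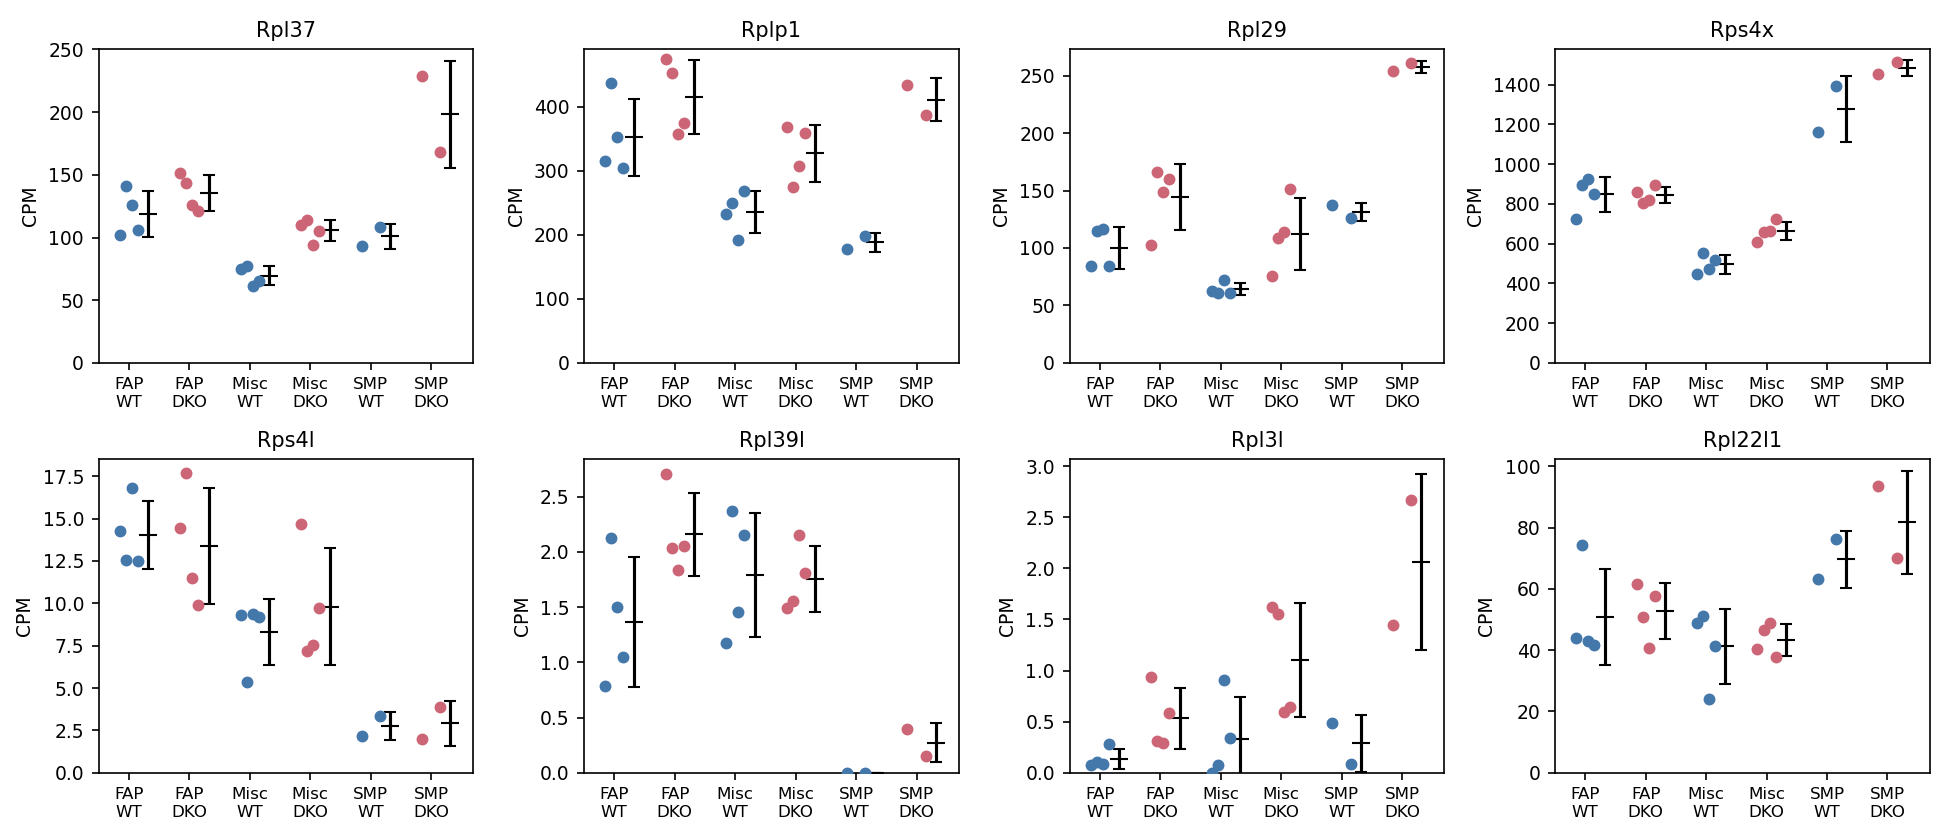
CPM of Rpl37, Rplp1, Rpl29 and Rps4x (top) and of the paralogs Rps4l, Rpl39l, Rpl3l and Rpl22l1 (bottom) in every library by group, on linear axes from 0; points are libraries and bars the group mean ± SD. Rps4l lies between 5.36 and 17.7 CPM in FAP and Misc and between 1.98 and 3.85 CPM in SMP, while Rps4x is highest in SMP.

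Members used as reference genes in qPCR differed in level across these groups. Rps29 spanned 1.79-fold from its lowest to its highest group mean, Rplp0 2.44-fold, Rpl27 2.51-fold, Rpl13a 2.54-fold, Rpl19 2.58-fold, Rpl32 2.81-fold, Rpl4 2.93-fold and Rps18 3.01-fold. In Misc DKO 6 of these 8 were called higher, where 68.3% of the tested members and 9.15% of all genes were. They were Rpl32, Rpl13a, Rpl19, Rpl27, Rplp0 and Rpl4. Rpl32 rose by 0.48 ± 0.13 (adjusted p = 0.011), Rpl13a by 0.45 ± 0.11 (adjusted p = 0.0057) and Rpl19 by 0.42 ± 0.10 (adjusted p = 0.0028). Rps18 was 0.50 ± 0.18 (adjusted p = 0.06) and Rps29 0.24 ± 0.13 (adjusted p = 0.23). Among members with other known duties, Rps6, the protein that S6 kinases phosphorylate, rose in Misc DKO (0.42 ± 0.09, adjusted p = 0.0029), as did Rpl5 (0.47 ± 0.11, adjusted p = 0.0032) and Rpl11 (0.44 ± 0.10, adjusted p = 0.0019), which can bind Mdm2, and Rps19 (0.48 ± 0.12, adjusted p = 0.0053), mutated in an inherited anaemia. In SMP DKO the values were 0.30 ± 0.13 for Rps6 (adjusted p = 0.11), 0.34 ± 0.13 for Rpl11 (adjusted p = 0.073) and 0.48 ± 0.16 for Rps19 (adjusted p = 0.038).

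Genes that work with ribosomal proteins were counted from lists. Fau and Gnb2l1 (Rack1), ribosomal proteins whose symbols fall outside the rule, were called higher in Misc DKO (0.45 ± 0.10 and 0.56 ± 0.10, adjusted p = 0.0032 and 0.00019) and in SMP DKO (0.83 ± 0.15 and 0.62 ± 0.14, adjusted p = 0.0004 and 0.0023). Of 20 elongation factors and other TOP messenger RNAs, 13 were higher in Misc DKO, 8 higher and 1 lower in SMP DKO, and 0 called in FAP. Over all genes, 9.15% were called higher in Misc DKO, 11.8% higher and 11.2% lower in SMP DKO, and 10.7% either way in FAP DKO. Vim, which encodes vimentin, led the 20 in Misc (0.71 ± 0.10, adjusted p = 2.8e-05) and SMP (1.26 ± 0.15, adjusted p = 4e-06). Eif3e, a subunit of an initiation factor, rose in Misc (0.54 ± 0.11, adjusted p = 0.0013). Hnrnpa1 was the gene lower in SMP DKO (-0.88 ± 0.25, adjusted p = 0.015). Eef1a1, which brings transfer RNA to the ribosome, was 0.30 ± 0.10 in Misc (adjusted p = 0.036), 0.26 ± 0.14 in SMP (adjusted p = 0.19) and -0.01 ± 0.10 in FAP (adjusted p = 0.97).

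Ribosome biogenesis factors process ribosomal RNA and assemble subunits. Of 36 factors, 19 were called higher in FAP DKO, 17 in Misc DKO and 17 in SMP DKO, with 0 lower in each. Over all genes, 5.58% were called higher in FAP DKO, 9.15% in Misc DKO and 11.8% in SMP DKO. The median log2 differences of the factors were 0.44, 0.38 and 0.47. Rrp12, a factor for subunit export, was at 9.09 ± 1.48 CPM (SD, n = 4) in FAP WT and 18.8 ± 5.46 CPM (n = 4) in FAP DKO, a log2 rise of 1.03 ± 0.19 (adjusted p = 0.00092, edgeR's quasi-likelihood test). In SMP it rose by 1.49 ± 0.25 (adjusted p = 0.00025). Nop56, part of the box C/D particles that methylate ribosomal RNA, rose in FAP by 0.75 ± 0.16 (adjusted p = 0.0029), Fbl, the methylase itself, by 0.57 ± 0.13 (adjusted p = 0.0043) and Npm1, nucleophosmin, by 0.56 ± 0.13 (adjusted p = 0.0051). In FAP DKO 0 of the 82 ribosomal protein genes were called, though 79 lay above 0; the difference between the lists was not tested.

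Of 21 genes for RNA polymerase I and its regulators, 4 were higher and 1 lower in FAP DKO, 3 and 2 in Misc DKO and 5 and 0 in SMP DKO. Over all genes, 5.58% were called higher and 5.14% lower in FAP DKO, 9.15 and 9.55% in Misc DKO and 11.8 and 11.2% in SMP DKO. Mycn rose in FAP (0.80 ± 0.19, adjusted p = 0.007) and Misc (0.72 ± 0.17, adjusted p = 0.0048), and Mxd4, whose product competes for the Myc partner Max, fell in FAP (-0.50 ± 0.12, adjusted p = 0.0081) and Misc (-0.37 ± 0.12, adjusted p = 0.035). Myc itself was -0.15 ± 0.13 in FAP, -0.05 ± 0.13 in Misc and -0.05 ± 0.19 in SMP, called in none (adjusted p = 0.55, 0.84 and 0.89). Of 28 genes of mTORC1, S6 kinases and TOP regulators, 0 were higher and 2 lower in FAP DKO, 2 and 3 in Misc DKO and 7 and 3 in SMP DKO. Eif4ebp1, a repressor of translation that mTORC1 inactivates, rose in SMP (1.75 ± 0.22, adjusted p = 1e-05), and Rps6ka5 fell in FAP (-0.94 ± 0.17, adjusted p = 0.00063), Misc (-0.72 ± 0.17, adjusted p = 0.0034) and SMP (-1.16 ± 0.22, adjusted p = 0.0006). Larp1 was 0.14 ± 0.09 in FAP (adjusted p = 0.35), 0.01 ± 0.09 in Misc (adjusted p = 0.94) and rose in SMP (0.38 ± 0.12, adjusted p = 0.027). Of 77 mitochondrial ribosomal protein genes, which serve the separate ribosome of the mitochondrion, 0 were called in FAP DKO, 4 higher in Misc DKO and 12 higher in SMP DKO, with medians of -0.01, 0.15 and 0.33.

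**Figure D5:**
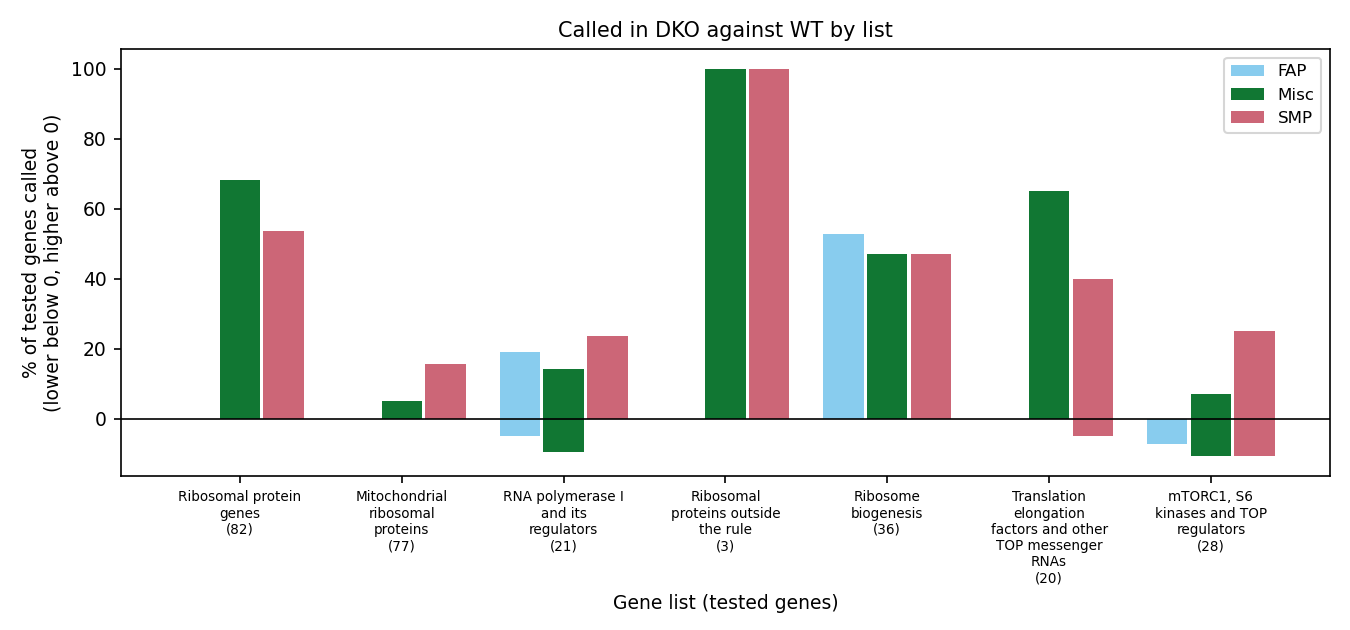
Percent of the tested genes of each list that were called higher (above 0) or lower (below 0) in DKO against WT, for FAP, Misc and SMP. In FAP no ribosomal protein gene is called while 19 of 36 ribosome biogenesis factors are called higher, where 5.58% of all genes are. In Misc and SMP genes of both lists are called.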

How the data were processed

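RNA of 20 libraries was sequenced on a HiSeq 2500 with reads of 100 bases and mapped with OSA to mm10 with RefSeq annotation, per the series text. The authors deposited 1 table of raw counts per gene, not normalized. The submitters' processing notes name DESeq2 and give no version. How reads with several matches or from overlapping genes were counted is not stated in the sources used here. In the table, 52 symbols altered to dates were restored, none of them a member, and 24312 of 24393 genes matched RefSeq.

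Groups came from sample titles. Genes with at least 10 counts in enough libraries and 15 in total were kept (filterByExpr; 14179 genes). All 20 libraries were fitted together with a mean per group by edgeR's quasi-likelihood test (edgeR 4.0.16, limma 3.58.1, R 4.3.3) after TMM scaling. Benjamini-Hochberg adjustment ran over all 14179 genes, with calls at an adjusted p below 0.05. CPM are counts scaled to the TMM-adjusted library size. Totals of 5826000 to 17730111 counts set the precision.

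Named members were the 3 called each way with the largest change per comparison (groups not overlapping, mean of at least 5 CPM), the paralogs with partners, qPCR reference genes, stalk and other members with known duties, the extremes of level, and up to 2 genes each way per pathway list. Some genes that this rule names are not reported here. The members and lists were chosen with earlier results of these data known. Transcript lengths are medians per gene of principal transcripts (GENCODE), and the length trend was a lowess curve per library. Alternatives were upper-quartile scaling, DESeq2 1.42.0, no filter, only the compared groups, the length trend, stricter thresholds, the replicate block and leaving out each library; drawing the length trend without the members was added after seeing the data. Replicate numbers pair FAP with Misc libraries within a condition: the correlation of their deviations from group means was 0.18 to 0.34 for same-numbered DKO libraries, 0.17 to 0.23 for WT ones, and -0.18 to 0.06 for other numbers.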

Additional observations from a re-analysis of the deposited data

Results flagged for a closer look

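Among 168 sets of 4 libraries (1 gene in 1 group), 9 had a library far from the other 3 by Dixon's 95% criterion, where chance gives about 1 in 20. In FAP WT these were library 2 for Rpl22l1 (74.2 CPM, others 41.7 to 43.8) and Rps27l (17.6, others 12.2 to 12.9), library 4 for Rpl3l (0.286, others 0.0785 to 0.101) and library 1 for Rplp0 (714, others 808 to 821). In FAP DKO it was library 1 for Rps27 (0.373 CPM, others 1.06 to 1.1). In Misc WT these were library 3 for Rpl29 (72.5 CPM, others 61 to 62.5) and library 2 for Rpl7l1 (52.2, others 42.7 to 42.9) and Rps4l (5.36, others 9.2 to 9.38), and in Misc DKO library 2 for Rpl13a (283, others 309 to 312).

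A test of the difference between populations was passed by 9 members, whose DKO difference was smaller in FAP than in SMP. On the log2 scale, FAP minus SMP, the values were -0.89 for Rplp1, -0.78 for Rpl37 and Rpl41, -0.67 for Rps15 and Rpl35, -0.64 for Rpl27, -0.62 for Rpsa, -0.56 for Rpl18 and -0.55 for Rpl28. None of the 9 was called without SMP WT library 1.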

How the results depend on the processing

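Of the results for single genes, 2163 kept direction and call under an alternative, 123 lost the call, 17 gained it, 55 moved and 1 reversed: Rps29, FAP against SMP in WT, at -0.13 with the length trend drawn without the members. The cause of these changes was not tested. Counts of members called moved as follows. For FAP DKO (0) they were 1 with upper-quartile scaling, 2 with DESeq2, 1 with only the compared groups and 1 with the replicate block. For Misc DKO (56) they were 36 at an adjusted p below 0.01 and 2 at a change of at least 1.5-fold. For SMP DKO (44) they were 16 with either length trend, 25 with only the compared groups, 22 at 0.01 and 29 at 1.5-fold. At 1.5-fold, FAP against Misc in WT (67) had 20 and FAP against SMP in WT (37) had 17, the latter 73 with either length trend. FAP against Misc in DKO (21) had 8 with upper-quartile scaling, 32 with DESeq2, 47 with the replicate block within genotype, 2 at 0.01 and 0 at 1.5-fold. The FAP minus Misc difference (0) had 4 with DESeq2 and 8 with that block. The FAP minus SMP difference (9) had 5 with upper-quartile scaling, 3 with the length trend, 1 with it drawn without the members, 5 without the filter and 0 at 0.01. The Misc minus SMP difference (0) had 2 with DESeq2. Without the 50 largest other genes the member share was 3.4% in FAP DKO, 3.09% in FAP WT, 3.07% in Misc DKO, 2.28% in Misc WT, 6.01% in SMP DKO and 4.5% in SMP WT.

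Leaving out each library gave 0 to 2 calls for FAP DKO, 41 to 61 for Misc DKO, 13 to 36 for SMP DKO, 57 to 69 for FAP against Misc in WT, 21 to 46 for FAP against SMP in WT, 58 to 73 for Misc against SMP in WT, 5 to 31 for FAP against Misc in DKO, 53 to 72 for FAP against SMP in DKO, 69 to 76 for Misc against SMP in DKO, 0 to 0 for FAP minus Misc, 0 to 10 for FAP minus SMP and 0 to 3 for Misc minus SMP; a lone SMP library is assumed to vary like the other groups. DKO and WT libraries share only a number (r of -0.06 to 0.29 in FAP, -0.16 to 0.03 in Misc and -0.05 in SMP), and with the replicate block the counts were 60 for Misc DKO, 45 for SMP DKO and 10 for FAP minus SMP. With 2 SMP libraries a group and few counts on Rpl3l, Rpl39l, Rpl34 and Rps27, small changes there were not detectable.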
